A study of Homo sapiens with 12 samples.

Results

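The BCL2 family of apoptosis regulators was described here by 10 genes, of which BCL2, MCL1 and BCL2L1 are pro-survival, BAX and BAK1 are pore-forming effectors, and BBC3, PMAIP1, BCL2L11, BID and BAD are BH3-only death initiators. The members were chosen by name and matched to the gene identifiers of the count files, and all 10 of the 60609 listed genes were found. All 10 also passed the filter on low counts that left 13895 genes for testing. The samples were cultures of K562, an erythroleukaemic line from chronic myeloid leukaemia in blast crisis that carries BCR-ABL1. RNA sequencing compared 3 cultures treated with FT671, a compound that blocks the deubiquitinase USP7, at 10 μM for 48 h, with 3 cultures given the solvent DMSO. A single cell line limits the comparison to one genetic background, and no normal blood cells were included.

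The mitochondrial pathway of apoptosis is set by binding among these proteins. Pro-survival members hold the effectors and the BH3-only proteins in check, and once BH3-only proteins are in excess, BAX and BAK form pores in the outer mitochondrial membrane that release cytochrome c and start the caspase cascade. K562 cells are known to resist many death stimuli and to depend strongly on BCL-XL, the main product of BCL2L1.

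The libraries held 5320245 to 14250500 counts in the DMSO group and 4555220 to 11437804 in the FT671 group, so that 3 counts corresponded to 0.211 to 0.659 CPM (counts scaled to a common library size), a limit that covers counting error only. The erythroid identity of the line was checked with 8 marker genes, all of them above that limit in at least 1 library, whose summed level ran from 637 to 742 CPM in DMSO and from 686 to 742 CPM in FT671. Of 6 lymphoid and monocyte markers 1 was at 0 and 3 were above the limit, and their sum, nearly all of it from CD3D, ran from 18.7 to 23.4 CPM in DMSO and from 26.5 to 32.9 CPM in FT671. The 3 fibroblast markers, 2 of them above the limit, summed to 2.38 to 2.91 CPM and 2.59 to 2.89 CPM. The part of these markers in the results was not tested. RNA of the drug target, USP7, fell from 119 ± 12.3 CPM (SD, n = 3) to 33.1 ± 3.38 CPM (SD, n = 3), a log2 fold change of -1.82 (SE 0.10, edgeR adjusted p = 2.66e-08).

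Of the 10 members, 5 passed an adjusted p of 0.05 in edgeR's quasi-likelihood test. BAX, PMAIP1 and BID rose under FT671, while BCL2L11 and MCL1 fell, and BCL2, BCL2L1, BAK1, BBC3 and BAD did not pass. The 5 of 10 called members stand beside 50.1% of all tested genes, the 3 that rose beside 23.6% and the 2 that fell beside 26.5%, so the family held about the same share of called genes as the whole table. For the same 5 members the 3 libraries of one group did not overlap those of the other, which was so for 57.1% of tested genes (26.8% with FT671 higher and 30.3% with FT671 lower). At the stricter adjusted p of 1e-05 that the study's methods use, edgeR and DESeq2 both called 0 of 10 members. Over all 13895 tested genes edgeR called 823, or 5.92%, and DESeq2 called 2053 of the same genes. The edgeR count over all genes ran from 107 without FT671 replicate 3 to 2607 without DMSO replicate 3, which left 1 member past 1e-05. At an unadjusted p of 0.05 edgeR passed 6 members, against 56.1% of tested genes. The median log2 fold change was -0.04 over the members and -0.01 over all tested genes, and was -0.27 over the 3 pro-survival genes, 0.13 over the 2 effectors and 0.11 over the 5 BH3-only genes. The subclass medians rested on few genes: the pro-survival value was that of MCL1 and the BH3-only value that of BAD. The effector value lay between BAX at 0.59 and BAK1 at -0.33. The pro-survival median was -0.11 without FT671 replicate 3 and -0.26 to -0.23 with any other library left out. Without DMSO replicate 3 the effector median was 0.03 and the BH3-only median -0.05. Without DMSO replicate 1 only BAX passed among the members that rose. In bulk libraries of this kind fewer cells and less RNA per cell cannot be told apart, and the p-values measure the spread among these cultures.

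**Figure D1:**
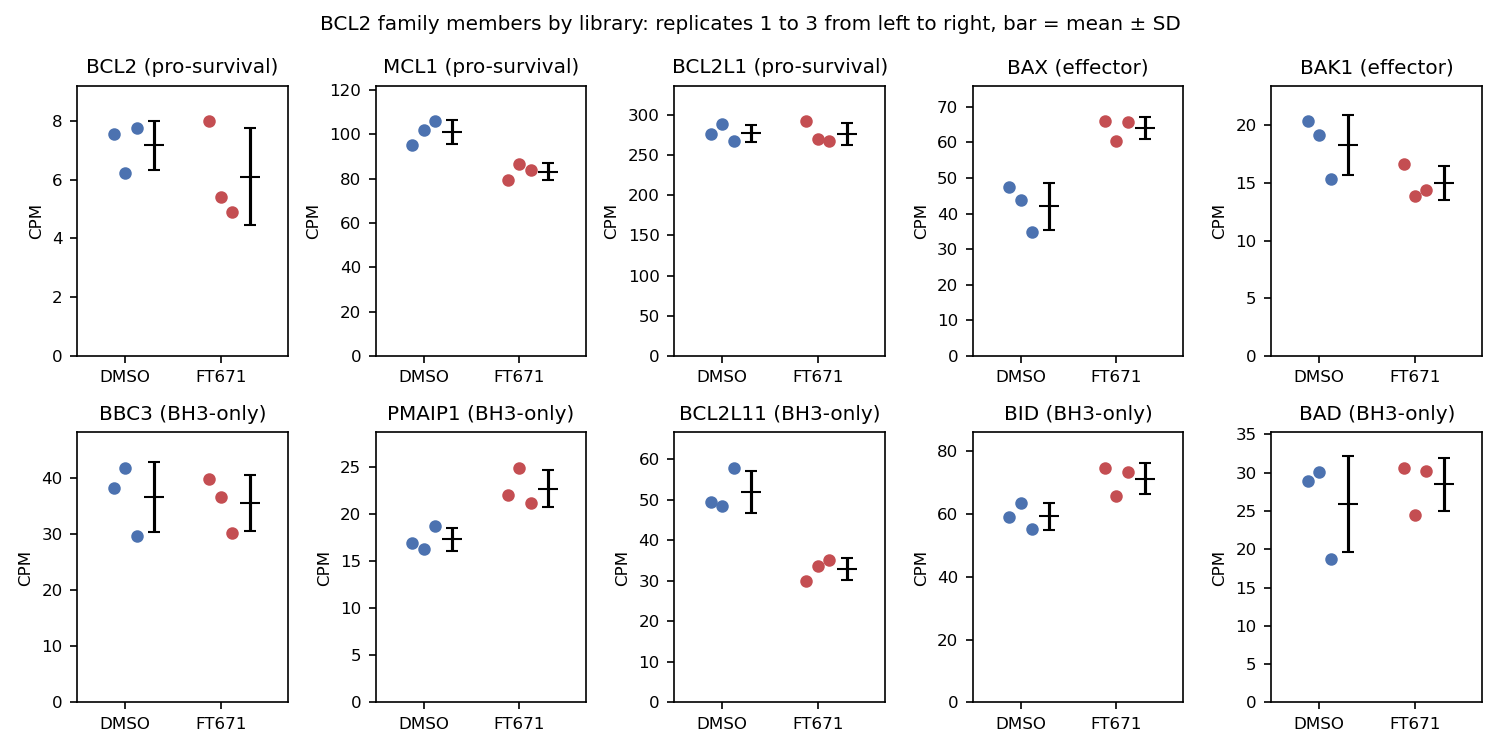
CPM of the 10 members in each of the 3 DMSO and 3 FT671 libraries, with the group mean and SD; the members are ordered by subclass. The FT671 libraries lie above all DMSO libraries for BAX, PMAIP1 and BID and below them for MCL1 and BCL2L11.

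**Figure D2:**
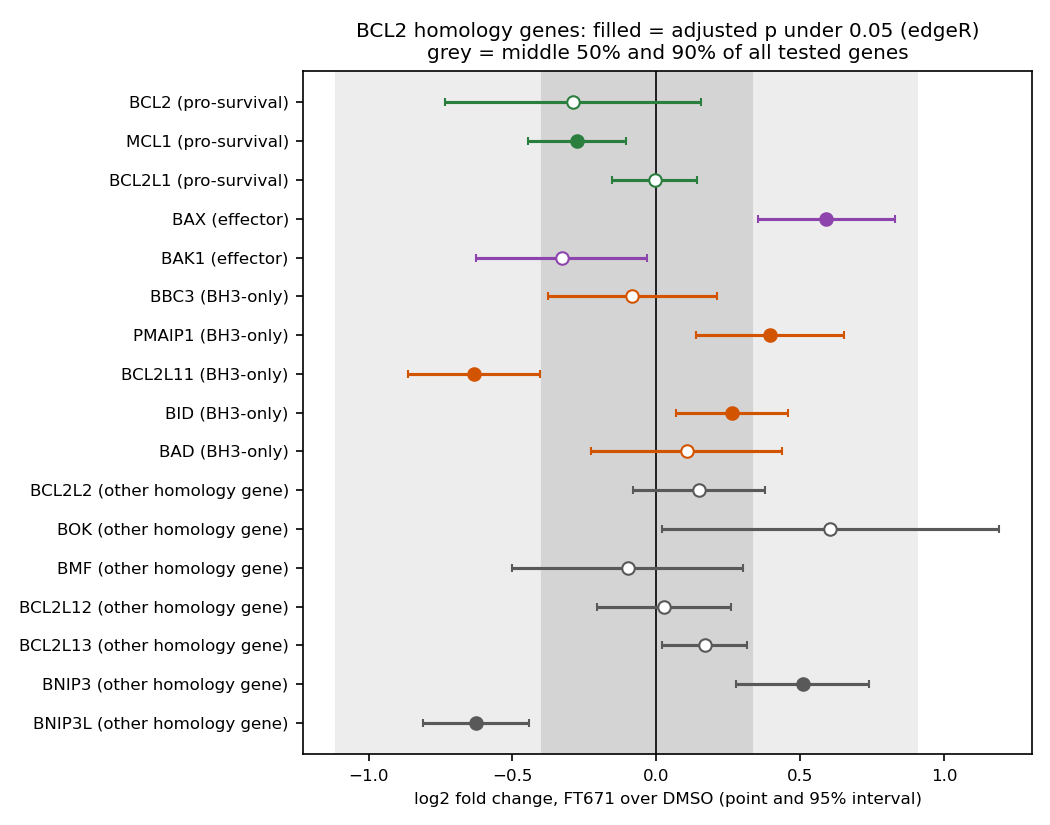
Log2 fold change, FT671 over DMSO, of the 10 members and 7 further genes with BCL2 homology, with 95% confidence intervals, filled points for an adjusted p under 0.05 and grey bands for the middle 50% and 90% of all tested genes. The members run from -0.64 for BCL2L11 to 0.59 for BAX.

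The sequences before the RefSeq transcription start of 3 members are shown. They belong to the member with the largest rise, the member with the largest fall and the BH3-only gene with the largest rise. CpG is marked because the chromatin complex under study, a noncanonical Polycomb complex with the CpG-binding subunit KDM2B, is recruited to unmethylated CpG islands. Each stretch is the run of 250 bases before that start on GRCh38.p14, on the plus strand, with each CpG in capitals. By the GENCODE gene positions given below, the BAX stretch runs into the gene and the BCL2L11 stretch lies inside it.
BAX, chr19:48954625-48954874: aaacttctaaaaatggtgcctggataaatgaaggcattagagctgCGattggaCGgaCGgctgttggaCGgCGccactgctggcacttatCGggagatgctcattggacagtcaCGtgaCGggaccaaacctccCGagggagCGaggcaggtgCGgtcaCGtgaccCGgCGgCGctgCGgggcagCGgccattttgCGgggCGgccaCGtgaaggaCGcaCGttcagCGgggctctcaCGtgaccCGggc
PMAIP1, chr18:59899746-59899995: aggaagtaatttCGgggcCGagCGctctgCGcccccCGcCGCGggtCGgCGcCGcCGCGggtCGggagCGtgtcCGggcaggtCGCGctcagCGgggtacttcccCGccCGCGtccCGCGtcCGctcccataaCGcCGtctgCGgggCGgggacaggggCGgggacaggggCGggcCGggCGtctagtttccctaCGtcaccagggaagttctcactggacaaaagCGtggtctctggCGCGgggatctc
BCL2L11, chr2:111120664-111120913: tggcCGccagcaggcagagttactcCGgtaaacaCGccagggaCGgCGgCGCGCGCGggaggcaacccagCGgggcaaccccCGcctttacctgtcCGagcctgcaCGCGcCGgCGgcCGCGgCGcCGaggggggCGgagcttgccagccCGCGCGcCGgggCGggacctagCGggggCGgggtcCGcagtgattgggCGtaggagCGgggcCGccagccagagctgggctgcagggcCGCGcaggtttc
The BAX stretch held 25 CpG at 62.8% GC, the PMAIP1 stretch 36 at 72.8% and the BCL2L11 stretch 34 at 76.8%, against a median of 11 and an upper quartile of 23 over the 35116 RefSeq promoter windows. All 3 were thus CpG-rich, the 2 that rose and the 1 that fell alike. The palindrome CACGTG, the core letters of an E-box, was found 4 times in the BAX stretch and 0 times in the PMAIP1 or BCL2L11 stretch. At least 1 copy stood in 6.34% of all such stretches and 4 or more in 5 of them, or 0.0142%. These letter matches describe the sequence and do not show that a factor binds.

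In the full RefSeq windows, which run from 250 bases before the start to 50 after it, 9 members had an entry and MCL1 had none. CpG counts in these 300 bases were 38 for BAX, 42 for PMAIP1, 39 for BCL2L11, 31 for BCL2, 7 for BAK1 and 5 for BBC3. BCL2L1 and BAD had 2 windows each, with 20 and 16 CpG and with 21 and 24 CpG, and the 5 windows of BID held 6 to 37. The median window held 14, with quartiles of 4 and 28. Of the called members, BAX, PMAIP1, BCL2L11 and most windows of BID stood above the upper quartile. Of the members that did not pass the test, BCL2 stood above it as well, BCL2L1 and BAD above the median, and BAK1 and BBC3 below the median. A link between CpG content and the changes was not tested. CACGTG occurred in the windows of BAX, BBC3 and 2 of those of BID, and in 7.26% of all windows.

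Among the pro-survival genes only MCL1 passed the test. MCL1 (ENSG00000143384, chromosome 1, 150560895 to 150579738, hg38) encodes a short-lived protein that restrains BAK and binds PMAIP1 and BCL2L11. Its level was 95.01, 102 and 106 CPM in the DMSO libraries and 79.3, 86.6 and 83.7 CPM in the FT671 libraries. Every FT671 library was thus below every DMSO library. The means were 101 ± 5.54 CPM in DMSO and 83.2 ± 3.69 CPM in FT671 (SD, n = 3 each), with a fitted change of -17.3% and a log2 fold change of -0.27 (SE 0.08, 95% CI -0.44 to -0.10, edgeR adjusted p = 0.0105). With a correction for gene length the change was -0.16 and did not pass (edgeR adjusted p = 0.0795). Its exons share 43 bases with ADAMTSL4 on the other strand and 328 bases with ADAMTSL4-AS1 on the same strand, whose log2 fold changes were 0.39 and 0.36. The strand setting of the counting is not given in the sources used here, so reads of such partners may not be separable. Counts per gene also do not separate splice forms, of which MCL1, BCL2L1 and BCL2L11 are known to have some with opposing or graded activity.

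BCL2L1 (ENSG00000171552, chromosome 20, 31664452 to 31723989) was the most highly expressed member. It was measured at 276, 288 and 267 CPM in DMSO and at 292, 270.1 and 267 CPM in FT671, and the groups overlapped throughout. The means were 277 ± 10.4 and 276 ± 13.6 CPM (SD, n = 3 each), and the log2 fold change of -0.01 had a 95% confidence interval of -0.16 to 0.14 (edgeR adjusted p = 0.949). Its sign changed with the scaling. The antisense transcript ABALON, which shares 1735 exon bases with it, had a log2 fold change of 0.13 (edgeR adjusted p = 0.288). BCL2 itself (ENSG00000171791, chromosome 18, 63123346 to 63320128) was scarce, with 30 to 109 counts a library. It stood at 7.55, 6.23 and 7.76 CPM in DMSO and at 7.995, 5.41 and 4.92 CPM in FT671. The highest and the lowest values were both FT671 libraries. Its log2 fold change of -0.29 (SE 0.21, 95% CI -0.74 to 0.16) did not pass (edgeR adjusted p = 0.265), and the interval leaves room for a change in either direction.

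Of the effectors BAX passed the test and BAK1 did not. BAX (ENSG00000087088, chromosome 19, 48954815 to 48961798) encodes the effector that waits in the cytosol until it is activated. It was read at 47.4, 43.8 and 34.8 CPM in DMSO and at 66.0, 60.4 and 65.9 CPM in FT671. All FT671 libraries lay above the DMSO libraries, and DMSO replicate 3 was the lowest of all. The mean rose from 42.0 ± 6.53 to 64.1 ± 3.16 CPM (SD, n = 3 each), and the fitted change was 1.51-fold, or 0.59 in log2 (SE 0.11, 95% CI 0.35 to 0.83, edgeR adjusted p = 0.00055). This was the largest rise among the members, and BAX passed in 16 of 16 alternative settings with values from 0.48 to 0.69.

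BAK1 (ENSG00000030110, chromosome 6, 33572547 to 33580293) encodes the effector that resides in the mitochondrial outer membrane. Its values were 20.4, 19.1 and 15.3 CPM in DMSO and 16.7, 13.9 and 14.4 CPM in FT671. The FT671 libraries were mostly lower, but DMSO replicate 3 fell among them. The log2 fold change of -0.33 (SE 0.14, 95% CI -0.63 to -0.03) did not pass after adjustment (edgeR adjusted p = 0.0626). Without DMSO replicate 3 it was -0.43 and passed (edgeR adjusted p = 0.00557). With all libraries it passed with library totals, with no filter and with the length correction (edgeR adjusted p = 0.0440, 0.0497 and 0.0178), and in 5 of 16 alternative settings in all. DMSO replicate 3 was the lowest of the DMSO group for BAX, BAK1, BBC3, BAD, BID and BCL2L1 and the highest for MCL1, BCL2L11, PMAIP1 and BCL2. GGNBP1, which shares 91 exon bases with BAK1 on the other strand, had a log2 fold change of -0.16 (edgeR adjusted p = 0.54).

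Of the BH3-only genes PMAIP1 and BID rose and BCL2L11 fell. BCL2L11 (ENSG00000153094, chromosome 2, 111119378 to 111168444) encodes BIM, which binds every pro-survival member and can activate BAX and BAK directly; BCR-ABL1 signalling is known to keep it low. The DMSO libraries held 49.5, 48.4 and 57.9 CPM and the FT671 libraries 29.98, 33.7 and 35.0 CPM. The groups were well apart, and no FT671 library reached the lowest DMSO value. BCL2L11 fell, with means of 51.9 ± 5.18 and 32.9 ± 2.62 CPM (SD, n = 3 each) and a fitted change of -35.6%, or -0.64 in log2 (SE 0.11, 95% CI -0.87 to -0.41, edgeR adjusted p = 2.41e-04). It was the largest fall among the members and passed in 16 of 16 alternative settings, with values from -0.69 to -0.52. MIR4435-2HG, a long noncoding gene on the other strand that shares 727 exon bases, had a log2 fold change close to 0 whose sign changed with the scaling (edgeR adjusted p = 0.999).

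PMAIP1 (ENSG00000141682, chromosome 18, 59899996 to 59904305) encodes NOXA, which binds MCL1 in particular and promotes its degradation. Its level was 16.9, 16.3 and 18.7 CPM in DMSO and 22.0, 24.9 and 21.2 CPM in FT671. The groups did not overlap, although the gap between them was small. The mean rose from 17.3 ± 1.23 to 22.7 ± 1.95 CPM (SD, n = 3 each), and the fitted change was 1.32-fold, or 0.40 in log2 (SE 0.12, 95% CI 0.14 to 0.65, edgeR adjusted p = 0.0133). The call was lost without DMSO replicate 1 (0.38, edgeR adjusted p = 0.0525) and without FT671 replicate 2 (0.33, edgeR adjusted p = 0.0675).

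BID (ENSG00000015475, chromosome 22, 17734138 to 17774770) encodes the protein that caspase-8 cleaves to link death receptors to mitochondria. It was found at 58.9, 63.4 and 55.1 CPM in DMSO and at 74.6, 65.5 and 73.3 CPM in FT671. The lowest FT671 library lay just above the highest DMSO library. BID rose from 59.1 ± 4.16 to 71.1 ± 4.93 CPM (SD, n = 3 each), with a fitted change of 1.20-fold, or 0.26 in log2 (SE 0.09, 95% CI 0.07 to 0.46, edgeR adjusted p = 0.0265). This was the least secure of the 5 calls. It was lost without DMSO replicate 1, FT671 replicate 1 or FT671 replicate 3 (edgeR adjusted p = 0.0825, 0.0865 and 0.103) and with no filter on low counts (edgeR adjusted p = 0.117).

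BBC3 (ENSG00000105327, chromosome 19, 47220822 to 47232766) encodes PUMA, a strong binder of all pro-survival members. Its values of 38.2, 41.8 and 29.6 CPM in DMSO and 39.8, 36.6 and 30.1 CPM in FT671 overlapped almost fully, with a log2 fold change of -0.08 (SE 0.14, 95% CI -0.38 to 0.21, edgeR adjusted p = 0.635) and a sign that turned with a GC correction. BAD (ENSG00000002330, chromosome 11, 64269830 to 64284704) encodes a BH3-only protein that growth factor signalling silences by phosphorylation. It was read at 28.9, 30.05 and 18.7 CPM in DMSO and at 30.6, 24.5 and 30.2 CPM in FT671. DMSO replicate 3 stood lowest and the other values overlapped, and the log2 fold change of 0.11 (SE 0.15, 95% CI -0.23 to 0.44) did not pass (edgeR adjusted p = 0.595). Without that library the value was -0.05. BBC3 contains MIR3190, with 5 counts in the 6 libraries, and MIR3191, with 0, and BAD shares 404 exon bases with GPR137 on the other strand, whose log2 fold change was 0.26 (edgeR adjusted p = 0.0718).

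Levels were compared between genes as TPM, transcripts scaled to a common total, computed from the counts and the summed exon length of each gene. In DMSO BCL2L1 led with 220 ± 5.41 TPM (SD, n = 3), followed by MCL1 with 54.2 ± 5.46, BAX with 53.8 ± 6.15, BAD with 50.003 ± 9.77 and BID with 44.5 ± 1.12 TPM. BBC3 had 37.97 ± 4.57, BAK1 27.4 ± 2.75, PMAIP1 26.4 ± 3.41 and BCL2L11 25.8 ± 4.07 TPM, and BCL2 was last with 1.90 ± 0.31 TPM (SD, n = 3 each). Only the steps from BCL2L1 to MCL1, from BID to BBC3, from BBC3 to BAK1 and from BCL2L11 to BCL2 separated all 3 libraries of one gene from those of the next.

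With FT671 BCL2L1 remained first at 211 ± 8.77 TPM and BCL2 last at 1.55 ± 0.41 TPM (SD, n = 3 each). BAX stood second at 79.2 ± 3.53 TPM, ahead of BAD at 53.3 ± 6.11, BID at 51.5 ± 3.28 and MCL1 at 42.8 ± 2.21 TPM. Below them were BBC3 at 35.6 ± 4.78, PMAIP1 at 33.2 ± 3.01, BAK1 at 21.6 ± 1.96 and BCL2L11 at 15.6 ± 1.35 TPM (SD, n = 3 each). Only BAD and BID, and BBC3 and PMAIP1, overlapped with their neighbour. The order in the middle depended on the length used. With the longest transcript in place of all exons BAX was second in DMSO as well, at 77.1 TPM, and MCL1 was lower in the order at 55.7 TPM, while BCL2L1 stayed first at 213 TPM and BCL2 last at 2.42 TPM.

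**Figure D3:**
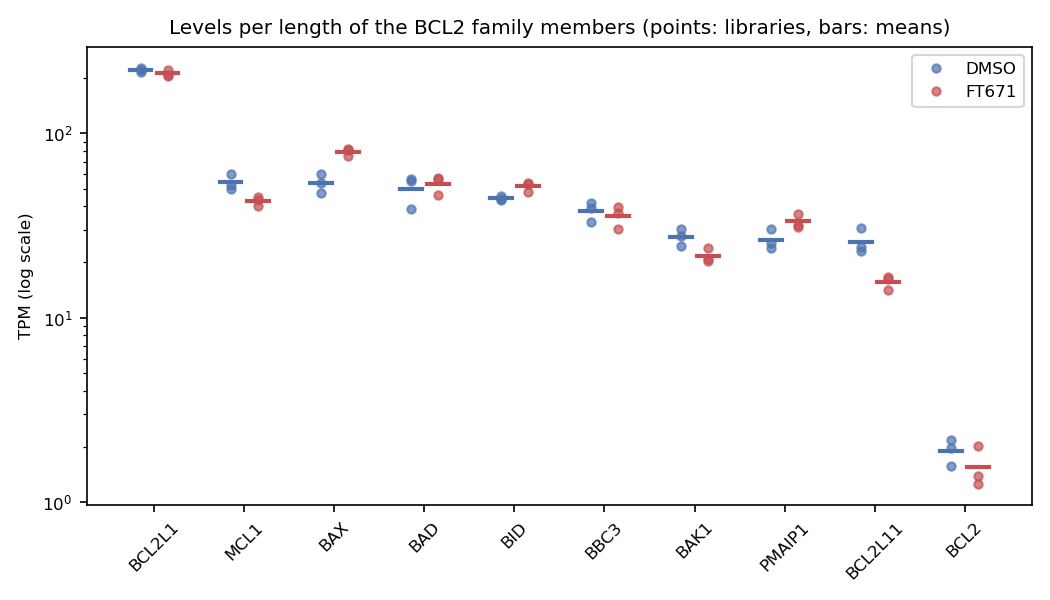
TPM of the 10 members on a log axis in the DMSO and FT671 libraries, with each library as a point and the group means marked. BCL2L1 is first in both groups, at 220 and 211 TPM, and BCL2 is last, at 1.90 and 1.55 TPM.

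The summed level of the family was nearly the same in both groups, at 542 ± 4.19 TPM in DMSO and 545 ± 16.6 TPM in FT671 (SD, n = 3 each). Its make-up differed. Pro-survival transcripts made up 49.1%, 50.1% and 53.7% of the sum in the DMSO libraries and 46.7%, 47.6% and 46.1% in the FT671 libraries, without overlap. Effector transcripts made up 16.5%, 14.98% and 13.4% in DMSO and 18.6%, 17.9% and 19.0% in FT671, again without overlap. BH3-only transcripts stayed close, at 34.1% ± 1.07 and 34.7% ± 0.185 (SD, n = 3 each). The higher effector share came from BAX, at 53.8 TPM in DMSO and 79.2 TPM in FT671, while BAK1 went from 27.4 to 21.6 TPM. The shares of a library add up to the whole, so one cannot rise unless another falls. Groups without overlap were also seen for 57.1% of all tested genes. The pro-survival share is dominated by BCL2L1, and the shares carry no test.

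Ratios between members were computed for 8 pairs, picked after their values were seen and therefore given without a test. BAX over BAK1 was 1.99, 1.96 and 1.94 in DMSO and 3.39, 3.72 and 3.91 in FT671. The spread among the DMSO libraries was small in this ratio, and BAX and BAK1 were both at their lowest DMSO level in DMSO replicate 3. PMAIP1 over MCL1, an antagonist over its main partner, was 0.487 ± 0.0287 in DMSO and 0.776 ± 0.0506 in FT671, whereas BCL2L11 over MCL1 went the other way, from 0.474 ± 0.0341 to 0.365 ± 0.0191 (SD, n = 3 each). BAX over BCL2L1 was 0.245 ± 0.0338 and 0.376 ± 0.0203, and MCL1 over BCL2L1 was 0.246 ± 0.0187 and 0.204 ± 0.0179 (SD, n = 3 each). BAX over MCL1 was 1.01 ± 0.207 and 1.86 ± 0.164, BAX over BCL2 was 28.9 ± 6.40 and 53.3 ± 12.6, and BID over BCL2L11 was 1.75 ± 0.278 and 3.32 ± 0.432 (SD, n = 3 each).

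Of 13 further genes with BCL2 homology 7 could be tested, of which 1 rose and 1 fell (28.6% called, against 50.1% of all tested genes), with a median log2 fold change of 0.15. BNIP3 and BNIP3L encode related mitochondrial receptors for mitophagy, and BNIP3L clears mitochondria from maturing red cells. BNIP3 rose from 34.8 ± 4.41 to 49.0 ± 1.88 CPM (SD, n = 3 each; log2 fold change 0.51, SE 0.11, edgeR adjusted p = 0.00136). BNIP3L fell from 102 ± 8.39 to 65.8 ± 2.16 CPM (SD, n = 3 each; log2 fold change -0.63, SE 0.09, edgeR adjusted p = 4.08e-05). These paralogs thus moved in opposite directions. BCL2L2 (0.15), BOK (0.61), BMF (-0.10), BCL2L12 (0.03) and BCL2L13 (0.17) had edgeR adjusted p-values of 0.267, 0.0797, 0.682, 0.854 and 0.0551, and the sign of BCL2L12 changed with library totals as the scaling. BCL2A1, BCL2L10, BIK, HRK, BCL2L14 and BCL2L15 were too low to test, with at most 8 counts in any library.

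**Figure D4:**
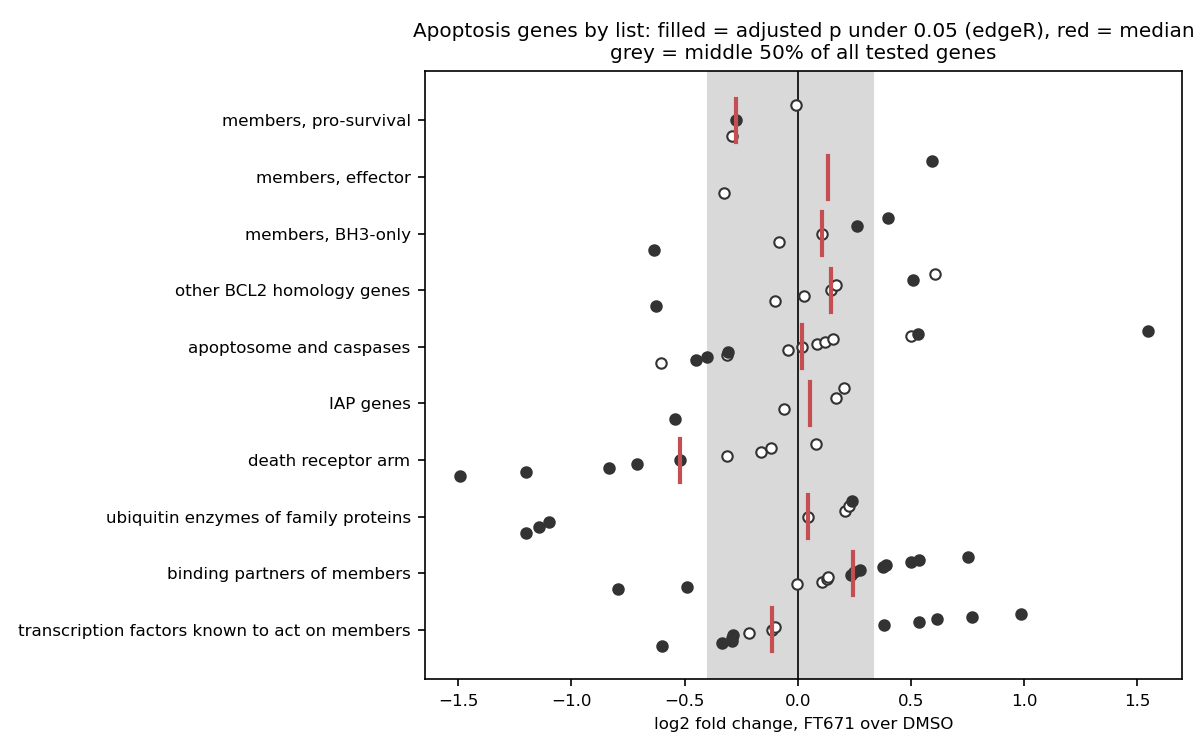
Log2 fold changes of the tested genes of the members and of each further list, 1 point a gene, with called genes filled, list medians in red and the middle 50% of all tested genes in grey. The median is -0.52 for the death receptor arm and 0.24 for the binding partners, against -0.01 for all tested genes.

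Downstream of the mitochondria, 13 genes of the apoptosome and the caspases were tested, of which 2 rose and 3 fell (38.5% called, against 50.1% of all tested genes; median log2 fold change 0.02). DFFA, the chaperone and inhibitor of the caspase-activated DNase, rose from 115 ± 8.61 to 334 ± 15.01 CPM (SD, n = 3 each; log2 fold change 1.54, SE 0.08, edgeR adjusted p = 1.04e-08). An unnamed antisense RNA that shares 467 exon bases with DFFA had a log2 fold change of 1.41. CYCS, which encodes the cytochrome c released through BAX and BAK pores, rose from 118 to 170 CPM (log2 fold change 0.53, edgeR adjusted p = 8.73e-05). AIFM1 and ENDOG, which encode mitochondrial proteins linked to DNA breakdown, had log2 fold changes of -0.31 and -0.40 (edgeR adjusted p = 0.00172 and 0.0144). With the length correction AIFM1 had -0.16 and did not pass (edgeR adjusted p = 0.0655). The ENDOG call was lost without DMSO replicate 1, FT671 replicate 2 or FT671 replicate 3 (edgeR adjusted p = 0.0781, 0.0704 and 0.0949). Of 7 inhibitor of apoptosis genes 4 were tested and 1 passed, against 50.1% of all tested genes. This was XIAP, a direct inhibitor of caspases, which fell from 52.2 to 35.4 CPM (-0.54, edgeR adjusted p = 9.74e-04). Without DMSO replicate 3 the called inhibitor genes numbered 3, of which 2 were higher.

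The death receptor arm, which reaches the family through BID, was tested with 9 of its 12 genes. Of these 5 fell (55.6% called, against 50.1% of all tested genes called and 26.5% lower), 0 rose in edgeR at an adjusted or unadjusted p of 0.05 and 0 rose in DESeq2, and the median log2 fold change was -0.52. FADD, the adaptor that recruits caspase-8, fell from 11.1 ± 1.66 to 4.29 ± 1.06 CPM (SD, n = 3 each; log2 fold change -1.49, SE 0.21, edgeR adjusted p = 4.69e-05). An unnamed antisense RNA sharing 1011 exon bases with FADD had a log2 fold change of -1.50. RIPK1, a kinase of the same complexes, fell from 34.0 to 14.5 CPM (-1.20, edgeR adjusted p = 1.85e-06). CASP8, the caspase that cleaves BID, fell from 16.7 to 9.44 CPM (-0.83, edgeR adjusted p = 1.94e-04). BID thus rose while the gene of its protease fell. CASP10 (-0.71) and the TRAIL receptor gene TNFRSF10B (-0.52) were the other two that fell, and were named after their values were seen.

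Of 8 genes for ubiquitin enzymes that act on family proteins 7 were tested, of which 1 rose and 3 fell (57.1% called, against 50.1% of all tested genes). USP9X, a deubiquitinase that stabilises MCL1, fell from 123 to 57.0 CPM (log2 fold change -1.10, edgeR adjusted p = 1.99e-06). BTRC and FBXO10, substrate receptors of ubiquitin ligases, fell with log2 fold changes of -1.14 and -1.20 (edgeR adjusted p = 6.23e-06 and 0.00317). FBXW7, MARCHF5 and USP13, named after their values were seen, did not pass (0.23, 0.21 and 0.04, edgeR adjusted p = 0.114, 0.133 and 0.887). What the changes in this list do to MCL1 protein was not tested. HUWE1, a ligase for MCL1, rose from 830 to 978 CPM (0.24, edgeR adjusted p = 0.014), a call lost without DMSO replicate 1 and without FT671 replicate 3 (edgeR adjusted p = 0.0743 and 0.0696) and with no filter on low counts (edgeR adjusted p = 0.0530).

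All 14 genes for binding partners of members were tested, and 8 rose and 2 fell, with a median log2 fold change of 0.24. The called share was 71.4%, against 50.1% of all tested genes, of which 23.6% rose and 26.5% fell. The channel genes VDAC1 and VDAC2, the latter a docking site for BAK in the outer membrane, rose from 170 to 240 CPM and from 103 to 149 CPM (log2 fold changes 0.50 and 0.54, edgeR adjusted p = 8.70e-05 and 5.74e-05). BAG1, a cochaperone that binds BCL2, rose from 37.0 to 63.1 CPM (0.75, edgeR adjusted p = 3.86e-05). YWHAH, of the adaptor family that sequesters phosphorylated BAD, fell from 211 to 121 CPM (-0.80, edgeR adjusted p = 2.26e-06). BECN1, an autophagy protein bound by BCL2, had a log2 fold change of -0.49 (edgeR adjusted p = 0.0017) and shares exon bases on the other strand with CNTD1 (795 bases, log2 fold change -0.61) and PSME3 (300 bases, 0.63).

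Of 14 genes for transcription factors known to act on members 13 were tested, and 5 rose and 5 fell (76.9% called, against 50.1% of all tested genes). STAT5A, a factor downstream of BCR-ABL1 that drives BCL2L1, rose from 439 to 674 CPM (0.62, edgeR adjusted p = 5.40e-06). BCL2L1 did not pass the test, and a link to STAT5A was not tested. GATA1, a factor of the same list named after its values were seen, fell from 297 to 244 CPM (-0.29, edgeR adjusted p = 0.0128). STAT5A shares 415 exon bases with its close paralog STAT5B (log2 fold change -0.10, edgeR adjusted p = 0.211), so reads may be split between them. FOXO1, of the FOXO factors known to induce BCL2L11, rose from 5.11 to 8.56 CPM (0.77, edgeR adjusted p = 0.0144). That FOXO1 call was lost without DMSO replicate 1, DMSO replicate 2 or FT671 replicate 2 (edgeR adjusted p = 0.0566, 0.0570 and 0.0967). FOXO3, a more abundant factor of that family named after its values were seen, fell from 45.8 to 37.2 CPM (-0.29, edgeR adjusted p = 0.0231). The FOXO3 call was lost without DMSO replicate 2, FT671 replicate 1 or FT671 replicate 2 (edgeR adjusted p = 0.0731, 0.0771 and 0.0740), with the length correction (-0.16, edgeR adjusted p = 0.160) and in DESeq2 (adjusted p = 0.0641). E2F1, which can induce several BH3-only genes, and RELA, a subunit of NF-κB, had log2 fold changes of -0.60 and -0.34 (edgeR adjusted p = 5.78e-04 and 0.00228). NFKB1 had -0.29 (edgeR adjusted p = 0.029), lost without DMSO replicate 1, DMSO replicate 2, FT671 replicate 1 or FT671 replicate 2 (edgeR adjusted p = 0.112, 0.0787, 0.0994 and 0.0915) and in DESeq2 (adjusted p = 0.0781). With the length correction NFKB1 had -0.16 (edgeR adjusted p = 0.217).

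**Figure D5:**
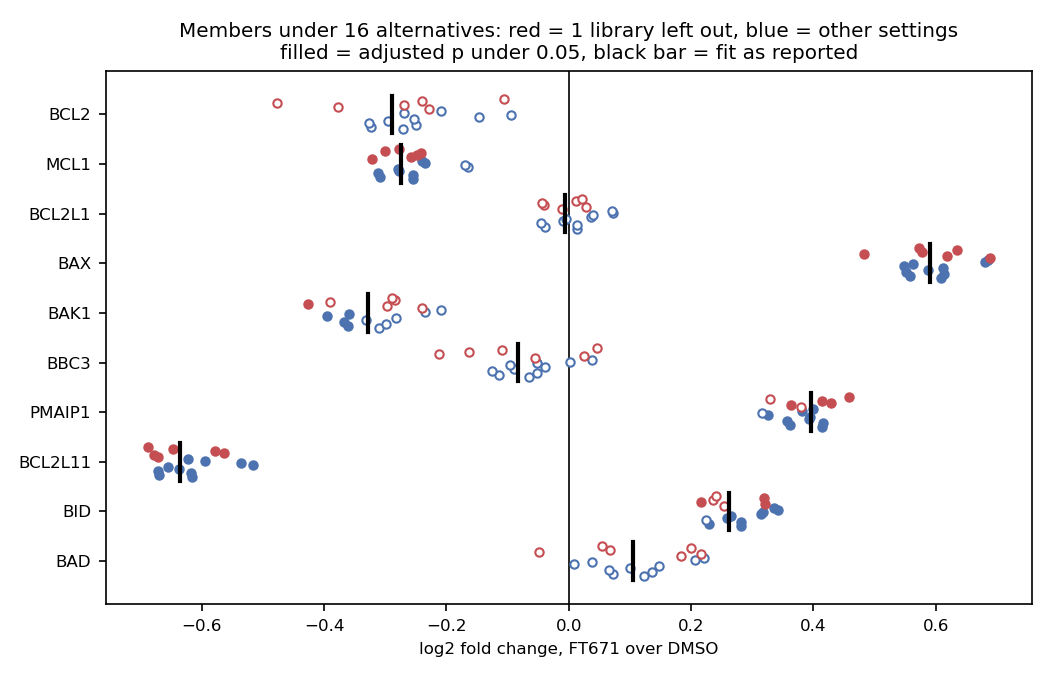
Log2 fold change of each member under the reported fit and 16 alternative settings, 1 point a setting, with left-out libraries in red, other settings in blue, calls filled and the reported value as a black bar. BAX stays between 0.48 and 0.69 and BCL2L11 between -0.69 and -0.52, and the values of BCL2L1, BBC3 and BAD cross 0.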

How the data were processed

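The authors deposited 1 table of raw counts per RNA library, with 1 whole number for each of 60609 Ensembl genes. Per the study's methods, ribosome-depleted total RNA was sequenced in paired-end mode, reads were aligned and counted with STAR on hg38 and tested with DESeq2. The STAR version, annotation release and strand setting are not given in the sources used here. Symbols, positions and lengths came from GENCODE release 44, which matched 60295 identifiers; the 314 others held 0.0609% of counts. The 6 ChIP-seq samples (24 h) were not analysed here.

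Counts were filtered with filterByExpr, scaled by TMM and tested with edgeR 4.0.16 (glmQLFit, glmQLFTest; R 4.3.3, limma 3.58.1) as FT671 against DMSO, 3 libraries each, which the study describes as independent experiments. P-values were adjusted by Benjamini-Hochberg over 13895 genes and called at 0.05. CPM values use TMM library sizes. Alternatives were DESeq2 1.42.0 and its size factors, library totals, other filters, the replicate number as a block, loess corrections for length or GC (span 0.3) and leaving out each library. The procedure was tested on simulated data. Named were all members, USP7, genes overlapping members, all further BCL2 homology genes, and the 3 highest and 3 lowest called genes of each other list, apart from items not reported here. Members and lists were chosen with earlier results of these data known. Promoter sequences are RefSeq (GRCh38.p14), with motifs sought on both strands.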

Additional observations from a re-analysis of the deposited data

How the results depend on the processing

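Of 160 log2 fold changes of members under 16 alternatives, 132 kept their direction and side of the threshold. MCL1 lost its call with the length correction, without and with the block, PMAIP1 with the length correction and block (0.32, edgeR adjusted p = 0.0514), and BAK1 gained one with library totals, no filter and the length correction. The sign turned for BCL2L1 with DESeq2 size factors (0.0136), DESeq2's test (0.0131), the length correction (0.0367; 0.0389 with the block), the GC correction (0.0728; 0.0715 with the block) and when libraries were left out (-0.0430 to 0.0280). BBC3 turned with the GC correction (0.00261; 0.0388 with the block) and on leaving libraries out (-0.212 to 0.0465), and BAD only there (-0.0478 to 0.216). Elsewhere BMF turned with the length correction and block (0.0102). BCL2L12 turned with library totals (-0.0053), no filter (-0.013), the length correction (-0.00193) and left-out libraries (-0.0929 to 0.106). MIR4435-2HG turned with library totals (-0.0341), no filter (-0.0374), a minimum of 10 counts (-0.00271), the block (-0.00824) and left-out libraries (-0.0598 to 0.103). The pro-survival median of -0.27 was -0.0940 with length correction and block and -0.259 to -0.106 with a library left out, and the BH3-only median -0.0478 to 0.216. Members that rose numbered 3, or 1 to 3 with a library left out, the 1 being BAX without DMSO replicate 1. Members past 1e-05 numbered 0, but 2 with no filter, 1 with the GC correction, without or with the block, and 0 to 1 with a library left out. Called genes became 5 among further homology genes with the GC correction, 8 in the apoptosome list with GC correction and block, and 2 among the inhibitor genes with either correction or 1 to 3 with a library left out. All genes past 1e-05 numbered 823, but 2053 by DESeq2, 2734 with no filter, 1753 with length correction and block, 2027 with GC correction, 1896 with GC correction and block, and 107 to 2607 with a library left out. The 3276 genes that rose and 3687 that fell became 4045 and 3740 with the GC correction and 3848 and 3325 with the length correction; the cause was not tested. Deviations of same-numbered libraries correlated at 0.115, -0.0605 and 0.140. The reported fit had no block because the study's methods name none. With the block, the common coefficient of variation between libraries was 0.0736, against 0.0832 without it. The replicate block gave 3374 genes higher and 3761 lower, 1155 past 1e-05, and 3 members higher and 2 lower, and changed no member's call. The shallowest library had 4555220 counts, and BCL2 at 30 to 109 counts had the widest interval of the members.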

Other observations

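HRK, a BH3-only gene best known from neurons, was below the filter, with 3, 1 and 1 counts in the DMSO libraries and 4, 2 and 8 in the FT671 libraries. BCL2L14 was listed at 0 counts in all DMSO libraries and at 1 in each FT671 library, and BCL2L15 at 1, 2 and 0 counts in DMSO and 0 in all FT671 libraries. No fold is given for these genes, since nearly all values were within the limit of 3 counts a library.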
